A study of Mus musculus with 36 samples.

Results

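The genes described here are 9 master regulators of lineages outside blood: Myod1 and Myf5 (skeletal muscle), Neurod1 (neurons and endocrine cells), Sox2 and Nanog (pluripotent cells, with Sox2 also in neural progenitors), Gata4 and Gata6 (heart and endoderm), Sox17 (endoderm) and Pdx1 (pancreas). They were chosen by name, and each was placed by the replication timing (RT) domain that covers its annotated start, out of 22350 protein-coding genes that all had a state in 3 RT maps. The 9 genes lie on 9 different chromosomes, so no pair shares a domain. The series measured RT by Repli-seq in mouse B cells, with 36 libraries in 7 groups, to ask how the protein RIF1 acts on RT. In Repli-seq, dividing cells take up BrdU, early and late S phase cells are sorted, and the newly made DNA of each fraction is sequenced. RT is the log2 of early over late reads, and a hidden Markov model cut it into domains of early (E), middle (M) or late (L) state in 20 kb bins.

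The first map was of shLacZ CH12 cells, a clonal mouse B cell lymphoma line with intact Rif1, infected with a lentivirus carrying a short hairpin RNA against LacZ as infection control and puromycin-selected. The labels give CD40, IL4 and TGF beta stimulation, worded for CH12 cells, at every library. The second was of activated splenic B cells from wild-type (WT) Rif1+/+ mice, with no age given in the sources used here. The study's methods give a C57BL/6 background and the use of either sex for Rif1+/+ mice, without naming the Repli-seq donors. Each of these maps rests on 4 libraries, the early and late fractions of 2 replicates. A further map, named for WT mouse embryonic fibroblasts (MEFs), is tied to no sample by the labels, and the study lists its MEF Repli-seq among public data sets. Not analysed here were the 5 other groups, which carried 1 or no intact Rif1 allele, an shRNA against Mcm6, or both. The authors pooled the replicates of a condition before calling states, which leaves 1 map per condition. No value has a replicate error, and no test between maps could be made. Differences in state below are descriptions of these 3 maps. Read depth is unknown from the maps.

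Early replication is, as a rule, a property of gene-rich, transcribed chromatin, and late replication of gene-poor, silent and lamina-associated chromatin. Many genes of development change their RT between lineages. Master regulators such as these can redirect cell fate when expressed in the wrong cell, and in B cells they are normally silent, often under Polycomb repression. No expression was measured in these maps, so the state at a gene says when its DNA is copied, not whether it is transcribed.

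The B cell marker genes Cd79a, Cd79b, Ms4a1 and Pax5 were E in both B cell maps. In the MEF map Cd79a and Cd79b were E, and Ms4a1 and Pax5 were M. Of 6 fibroblast genes, 5 were E in the MEF map (Col1a1, Col1a2, Col3a1, Pdgfra and Prrx1) and Twist1 was M. In CH12 cells 4 of the 6 were L and in primary B cells 2 were L. The maps named for B cells and for fibroblasts thus differed at these genes in the direction of their names.

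The 9 regulators did not share a timing state in any map. In CH12 cells, Myod1, Nanog and Pdx1 were E, Neurod1, Gata4, Gata6 and Sox17 were M, and Myf5 and Sox2 were L. Hence 3 of 9 were E, beside 50.6% of all protein-coding genes (Wilson 95% interval 50.0 to 51.3%, which covers counting over genes only). The 4 M genes stood beside 27.2% and the 2 L genes beside 22.1% of all genes. In primary B cells, 4 were E (Myod1, Nanog, Gata4 and Pdx1), 2 were M (Neurod1 and Gata6) and 3 were L (Myf5, Sox2 and Sox17). The shares of all genes in that map were 58.0% E, 29.1% M and 12.9% L. In the MEF map, 3 were E (Neurod1, Gata4 and Pdx1), 4 were M (Myod1, Myf5, Nanog and Gata6) and 2 were L (Sox2 and Sox17), beside 58.6%, 29.6% and 11.9% of all genes. No map placed most of the 9 genes in L domains.

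**Figure D1:**
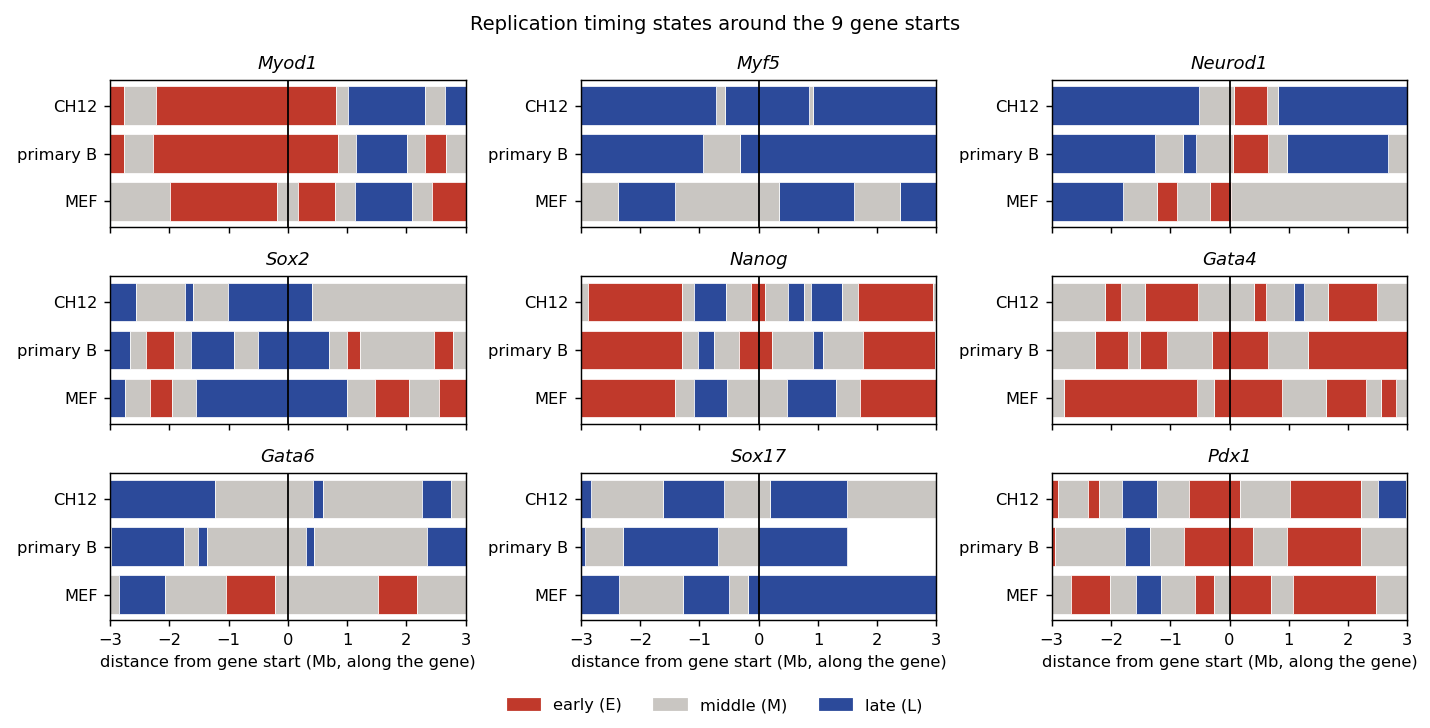
RT states in the 3 Mb on each side of the 9 gene starts, read along the direction of the gene, in the shLacZ CH12, WT primary B cell and MEF maps. The vertical line marks the gene start and white marks positions without a state. Sox2 lies in late domains and Pdx1 in early domains of all 3 maps, while the Gata6 start is middle in all 3 with late flanks in both B cell maps and early flanks in the MEF map.

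Between the B cell maps, 7 of the 9 regulators kept the same state, beside 78.5% of all genes. The exceptions were Gata4, which was M in CH12 cells and E in primary B cells, and Sox17, which was M in CH12 cells and L in primary B cells. Over all genes, 18.8% were earlier and 2.75% later in primary B cells than in CH12 cells. Across all 3 maps only Sox2 (L), Gata6 (M) and Pdx1 (E) had a single state, 3 of 9 beside 62.8% of all genes. Of all genes, 8.12% were L, 10.8% were M and 43.9% were E throughout.

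A further 4 regulators had 1 state in both B cell maps and another in the MEF map, beside 15.7% of all genes. Both directions occurred. Myf5 (L, then M in MEFs) and Neurod1 (M, then E in MEFs) were earlier in MEFs, and the muscle regulator Myod1 and the pluripotency regulator Nanog (both E, then M in MEFs) were later. Against CH12 cells alone, 3 regulators were earlier in MEFs (Myf5, Neurod1 and Gata4) and 3 were later (Myod1, Nanog and Sox17). Over all genes 23.1% were earlier and 6.81% later. Both comparisons with MEFs share the MEF map and are not separate evidence. None of the 9 was E in 1 map and L in another. The share of all genes with such a change was not counted, so this is not read as a trait of the 9.

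CpG-dense promoters are the usual targets of Polycomb in cells where such genes are silent. The promoters of 4 regulators are shown because their CpG content spans nearly the whole range of the regulators with an available promoter. Each is the 250 bases before the RefSeq gene start, read 5' to 3' on the strand of the gene, on GRCm38.p6 and not on the build of the maps. Capitals mark every CG, a motif that reads the same on both strands. The table used held 6 entries for 5 of the 9 genes (Myf5, Neurod1, Sox2, Nanog with 2 starts, and Pdx1). No promoter is shown for Myod1, Gata4, Gata6 and Sox17. Coordinates are chr3:34649745-34649994 (plus strand) for Sox2, chr10:107486135-107486384 (minus strand) for Myf5, chr2:79456637-79456886 (minus strand) for Neurod1 and chr6:122707239-122707488 (plus strand) for the first Nanog entry.
Sox2: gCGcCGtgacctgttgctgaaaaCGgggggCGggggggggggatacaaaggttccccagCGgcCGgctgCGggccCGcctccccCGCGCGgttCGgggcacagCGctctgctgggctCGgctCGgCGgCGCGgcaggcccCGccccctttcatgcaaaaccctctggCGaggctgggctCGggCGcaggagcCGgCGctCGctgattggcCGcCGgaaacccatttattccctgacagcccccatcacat
Myf5: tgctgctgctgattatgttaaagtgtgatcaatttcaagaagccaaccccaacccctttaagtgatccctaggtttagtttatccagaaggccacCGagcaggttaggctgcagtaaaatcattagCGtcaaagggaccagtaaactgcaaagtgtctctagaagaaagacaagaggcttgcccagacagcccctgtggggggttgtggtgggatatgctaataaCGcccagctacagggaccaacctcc
Neurod1: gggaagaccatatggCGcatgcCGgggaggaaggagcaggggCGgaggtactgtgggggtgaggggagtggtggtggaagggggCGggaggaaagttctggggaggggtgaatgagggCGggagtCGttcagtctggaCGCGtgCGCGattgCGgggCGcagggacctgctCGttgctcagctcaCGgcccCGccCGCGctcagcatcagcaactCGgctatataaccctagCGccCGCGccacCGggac
Nanog: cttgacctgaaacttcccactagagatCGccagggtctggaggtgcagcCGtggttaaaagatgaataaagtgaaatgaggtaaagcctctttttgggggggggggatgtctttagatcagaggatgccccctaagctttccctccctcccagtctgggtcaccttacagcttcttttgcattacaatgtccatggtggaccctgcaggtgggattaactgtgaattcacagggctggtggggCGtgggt

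The Sox2 promoter held 27 CG, and 8.56% of the 32851 promoters in the table held as many or more. Neurod1 followed with 22, more than 85.2% of promoters. Pdx1 had 10, and the median of all promoters was 6. Myf5 had 3 and the Nanog entries 3 and 2. Both Sox2 and Myf5 were L in both B cell maps, so the pair with late starts held both a promoter of high and a promoter of low CG count. Nanog, with few CG, was E in both.

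Myod1, which converts fibroblasts to muscle when expressed in them, lies on chromosome 7 at chr7:53631844-53634462 on the plus strand (mm9, as are all gene and domain coordinates of the maps). In CH12 cells its start was in an E domain of 3040 kb (chr7:51400001-54440000), longer than 93.2% of the 555 E domains of that map. In primary B cells the E domain was 3120 kb (chr7:51360001-54480000), and its ends lay 40 kb beyond the CH12 ends on both sides. The start was 808 kb and 848 kb from the nearest edge. These were the deepest early positions of the 9 genes in either B cell map. In MEFs the start lay in an M stretch of only 360 kb (chr7:53440001-53800000) between E domains of 1800 and 620 kb. The nearest edge was then 168 kb away. The M state at Myod1 in MEFs was thus a short dip within early territory, and 33 of the 51 bins within 500 kb of the start were E. Its neighbours were Otog, 135 kb upstream, and the potassium channel gene Kcnc1, 20 kb downstream. Both lay in the same domain as Myod1 in all 3 maps and so had its states by construction. Over all genes, 4.47% were E in both B cell maps and M in MEFs.

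Myf5, the related factor that acts first in muscle precursors, lies at chr10:106919964-106923190 on the minus strand. It was in L domains of 1420 kb in CH12 cells (chr10:106080001-107500000) and 7760 kb in primary B cells (chr10:99480001-107240000). The latter was the longest domain over any of the 9 genes, longer than 98.5% of the 664 L domains of its map. In MEFs the gene was in an M domain of 1760 kb (chr10:106580001-108340000) between L domains of 1260 and 960 kb. Nearest edges were 577, 317 and 343 kb away in the order CH12, primary B and MEF. This L to M pattern occurred in 3.88% of all genes. Its paralogue Myf6, another muscle regulator whose start is 8.60 kb upstream, shared the domain in all 3 maps, as any pair of starts this close usually will. The nearest E domain was 3437, 3317 and 3777 kb away, so the start was M in MEFs far from early territory. In these maps the muscle regulators Myod1 and Myf5 thus sat in opposite states in B cells and in the same state, M, in MEFs.

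Neurod1, at chr2:79292678-79296908 on the minus strand, lay at a timing border in all 3 maps. The start was 76.9 kb from the nearest edge in CH12 cells, 56.9 kb in primary B cells and 16.9 kb in MEFs. In CH12 cells it was in an M stretch of 600 kb (chr2:79220001-79820000) with an E domain of 560 kb on the low side and an L domain of 3480 kb on the high side. Primary B cells had an M stretch of 620 kb (chr2:79240001-79860000), again between E and L. The B cell state was thus that of an early-to-late transition. In MEFs the order along the chromosome was different. There the start was at the low end of an E domain of 340 kb (chr2:79280001-79620000). This lay between M domains of 3360 kb on the low side and 560 kb on the high side. Itga4, an integrin gene whose start is 201 kb downstream, was E in both B cell maps and M in MEFs. Cerkl, whose start is 0.0340 kb upstream, was M in both B cell maps and E in MEFs. Its states are those of Neurod1, since starts this close shared a domain in all 3 maps. By the annotation Neurod1 overlaps Cerkl and the lincRNA gene Gm17325. Over all genes 5.71% were M in both B cell maps and E in MEFs. All 3 distances are below the smoothing span, described below.

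Sox2, at chr3:34548927-34551383 on the plus strand, was the only regulator that was L in every map. Its L domains measured 1420 kb in CH12 cells (chr3:33540001-34960000), 1200 kb in primary B cells (chr3:34040001-35240000) and 2540 kb in MEFs (chr3:33000001-35540000). The start was 411, 509 and 991 kb from the nearest edge, the last being the deepest position of any of the 9 genes in any map. Of the 51 bins around the start, 46 were L in CH12 cells and 51 in each of the other maps. The surroundings were poor in protein-coding genes. No other protein-coding start lay within 500 kb, against a median of 15.0 for all genes, and the nearest were Dnajc19 at 569 kb and Atp11b at 1104 kb. Counting Sox2 itself, its domain held 5 protein-coding starts in CH12 cells, 1 in primary B cells and 6 in MEFs. The lincRNA gene Sox2ot overlaps Sox2. From the start the nearest E domain was 12529 kb away in CH12 cells, 991 kb in primary B cells and 1471 kb in MEFs.

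Nanog, at chr6:122657507-122664651 on the plus strand, lay in the shortest domain over any of the 9 genes. In CH12 cells this was an E domain of 240 kb (chr6:122520001-122760000), and 11.7% of the E domains of that map were shorter. It was an early island between M stretches of 420 and 400 kb, with an L domain 502 kb from the gene. The island of primary B cells measured 560 kb (chr6:122320001-122880000) and held the whole CH12 island. In MEFs the same ground was in an M domain of 1020 kb (chr6:122120001-123140000) between L domains of 560 and 820 kb. All 12 bins of the CH12 island and all 28 of the primary B cell island were M there. Nearest edges were 102, 222 and 482 kb away. The neighbours lay in the same domain as Nanog in each map and so had its states by construction. Dppa3, another gene of pluripotent and germ cells 81.1 kb upstream, and Slc2a3, a glucose transporter gene 94.2 kb downstream, were E, E and M in CH12, primary B and MEF. The region was gene-rich, with 21 other protein-coding starts within 500 kb.

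Gata4, the zinc finger factor of heart and endoderm at chr14:63817759-63890529 on the minus strand, was the regulator that was earlier in primary B cells and MEFs than in CH12 cells. In CH12 cells it was in an M stretch of 940 kb (chr14:63480001-64420000) between E domains of 200 and 900 kb, with the start 411 kb from an edge. Primary B cells had the gene in an E domain of 940 kb (chr14:63240001-64180000), and 35 of the 47 bins of the CH12 stretch were E. In MEFs the E domain was 1160 kb (chr14:63000001-64160000). Distances to the nearest edge were 289 and 269 kb. The neighbours were the B lymphoid kinase gene Blk, 145 kb upstream, and the DNA repair gene Neil2, 78.2 kb downstream. Both lay in the same domain as Gata4 in all 3 maps and so had its states by construction. Over all genes 5.46% were M in CH12 cells and E in the other maps.

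Gata6, the related factor at chr18:11052508-11085633 on the plus strand, was M in all 3 maps, in domains of nearly the same length. They measured 1660 kb in CH12 cells (chr18:9820001-11480000), 1680 kb in primary B cells (chr18:9680001-11360000) and 1740 kb in MEFs (chr18:10840001-12580000). The shared state hid different surroundings. In both B cell maps the stretch lay between 2 L domains, and the nearest E domain was 4653 and 3887 kb from the gene. In MEFs the stretch lay between 2 E domains, the nearer 213 kb away, and the nearest L domain was 2073 kb away. Only 38.6% of the CH12 stretch was shared with the MEF stretch, against 92.8% with the primary B cell stretch. Of the 83 bins of the CH12 stretch, 42 were E in MEFs, 41 were M and none was L. A state read at the gene start alone does not show this.

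Sox17, the endoderm regulator at chr1:4481009-4486494 on the minus strand, was M in CH12 cells and L in the other maps. Only 38 genes, 0.170% of all, had this pattern. In CH12 cells the M stretch was 780 kb (chr1:4300001-5080000) between L domains of 1300 and 1020 kb, with the start 186 kb from an edge. Like Gata6, it was thus a middle stretch between 2 late domains, as were 9.73% of all gene starts in that map. The primary B cell L domain (chr1:3000001-4500000) was 1500 kb, and the start was 13.5 kb from its edge, within 1 bin. The M state began just upstream of the gene. In MEFs the L domain was 4660 kb (chr1:1-4660000), but 3000 kb of it are unresolved bases of the reference and 1660 kb are sequence. There the start was 174 kb from the edge. The domains of primary B cells and MEFs begin where the map begins, so only their upper edge is measured.

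Pdx1, required to form the pancreas, at chr5:148081535-148089584 on the plus strand, was E in all 3 maps. Its domains were 860 kb in CH12 cells (chr5:147400001-148260000), 1160 kb in primary B cells (chr5:147320001-148480000) and 700 kb in MEFs (chr5:148080001-148780000). All were bordered by M on both sides. The start was 178 kb and 398 kb from the nearest edge in the B cell maps. In MEFs it was 1.53 kb from the low edge of the domain, closer than in all but 0.201% of genes. The gene Gsx1, a homeobox regulator of neural tissue 81.3 kb upstream, was E in both B cell maps and M in MEFs. Cdx2, an intestinal and trophectoderm regulator 37.3 kb downstream, was E in all 3 maps. The E call for Pdx1 in MEFs therefore rested on a border that falls between Gsx1 and Pdx1.

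**Figure D2:**
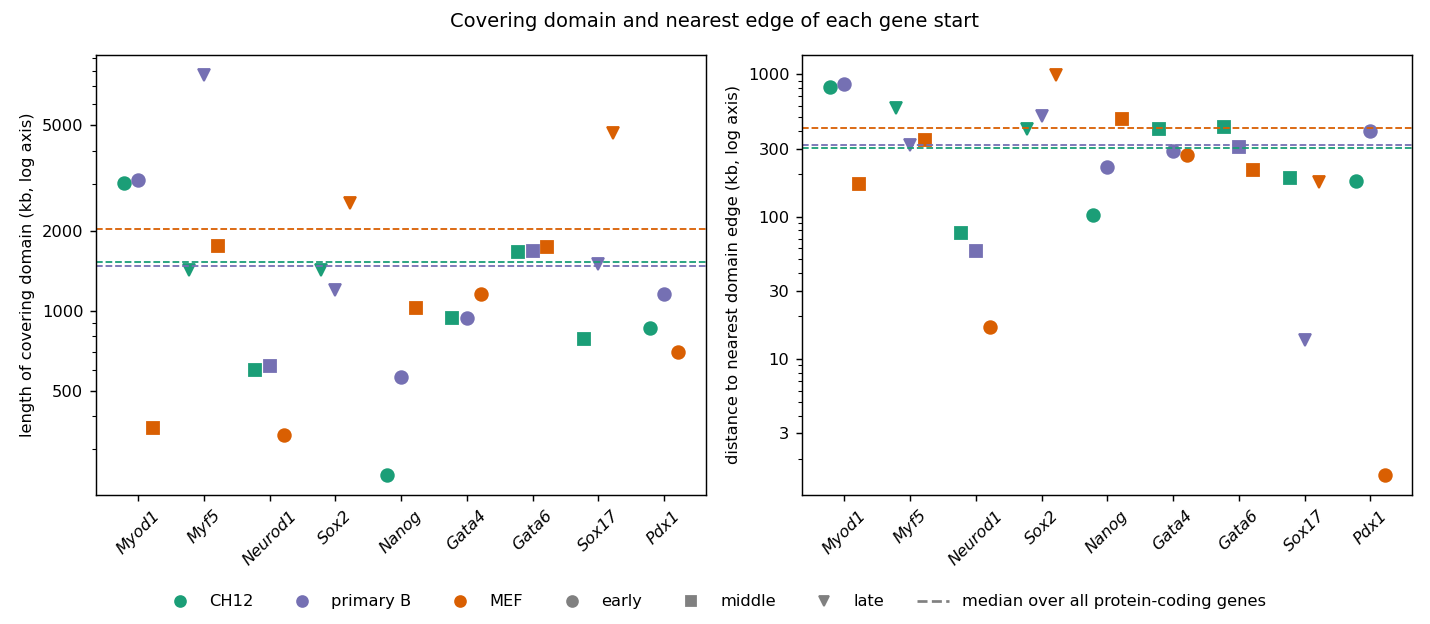
Length of the domain that covers each gene start (left) and distance from the start to the nearest domain edge (right), both in kb on log axes, in the CH12, primary B cell and MEF maps. Marker shapes give the state and dashed lines the median over all protein-coding genes in each map. The domain lengths run from 240 kb (Nanog, CH12) to 7760 kb (Myf5, primary B), and the edge distances from 1.53 kb (Pdx1, MEF) to 991 kb (Sox2, MEF).

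The study's methods smooth RT over a span of 300 kb ahead of the state calls, without naming MEFs there, so the state of a start within that distance of an edge can depend on its surroundings. In CH12 cells 4 of the 9 starts were this close (Neurod1, Nanog, Sox17 and Pdx1), beside 49.4% of all genes. In primary B cells 4 were (Neurod1, Nanog, Gata4 and Sox17), beside 48.2%. In MEFs 6 were (Myod1, Neurod1, Gata4, Gata6, Sox17 and Pdx1), beside 39.7%. Over the 9 genes the median distance to the nearest edge was 411 kb in CH12 cells, 307 kb in primary B cells and 213 kb in MEFs. The medians of all genes were 305, 316 and 418 kb. The covering domains had medians of 940, 1200 and 1160 kb over the 9 genes and 1520, 1480 and 2040 kb over all genes. In each map the state at the gene end was that at the gene start for 9 of 9 genes. The genes are 2.46 kb (Sox2) to 72.8 kb (Gata4) long, so both ends mostly fall in the same domain by construction. The share over all genes was not counted.

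The number of neighbouring genes varied widely. The median number of other protein-coding starts within 500 kb was 5 over the 9 genes, from 0 at Sox2 to 23 at Myod1, against 15.0 over all genes. Myf5 and Sox17 had 5 each, Neurod1 and Gata6 had 4, Gata4 and Pdx1 had 14, and Nanog had 21. The 3 genes that were E in both B cell maps, Myod1, Nanog and Pdx1, had 14 or more, and those never E (Myf5, Sox2, Gata6 and Sox17) had 5 or fewer. Neurod1 and Gata4 are in neither group. Neurod1, with 4, was E in MEFs only, and Gata4, with 14, was E in primary B cells and MEFs. The E state was itself told from L by its higher number of protein-coding starts per Mb. A link between E and many nearby starts is thus partly built in. Over all genes, too, the median number within 500 kb was higher for E than for M or L genes in each map. The split is therefore not read as a trait of the 9 genes, and it is a description with no test.

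Base composition around the starts followed the same order only in part. The 20 kb bin of the gene start had a GC content from 41.3% (Myf5) to 50.4% (Myod1), with a median of 46.6% over the 9 genes and 44.7% over all genes. The CpG ratio is the number of CG observed over that expected from the C and G content of the bin. Its median was 0.300 over the 9 genes and 0.246 over all. Sox2 had the highest ratio, 0.514, above 99.7% of all genes, although genes that were L in CH12 cells had a median of 0.171. Gata6 followed with 0.437 (above 98.5% of genes) and Sox17 with 0.380 (above 95.6%). Neurod1 had 0.332, Myf5 0.300, Pdx1 0.299, Gata4 0.292, Nanog 0.265 and Myod1 0.244. The lowest ratio of the 9 thus belonged to Myod1, which lay deepest in E domains of both B cell maps, and the highest to Sox2, which was L throughout. Over 500 kb on each side the GC content was nearer that order. It was 48.8% at Myod1, 46.0% at Pdx1, 45.6% at Gata4 and 43.0% at Nanog. At Gata6 it was 42.3%, at Sox17 40.0%, at Neurod1 39.6% and at Myf5 38.5%. Sox2, with no other protein-coding start in that range, had 43.7%, near the median of 44.1% over all genes.

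**Figure D3:**
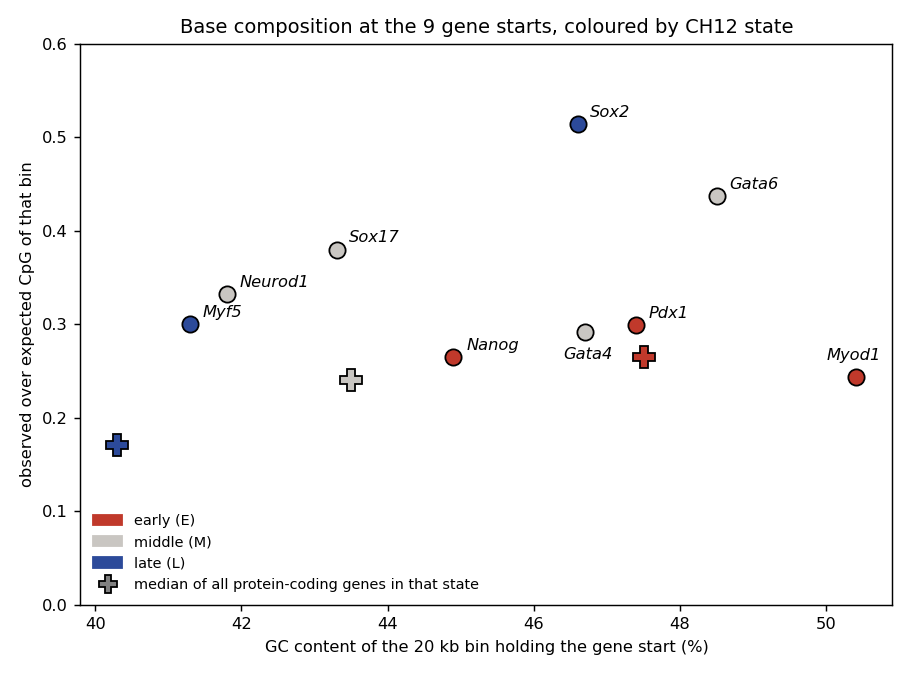
GC content (x axis, percent) and observed over expected CpG (y axis) of the 20 kb bin that holds each of the 9 gene starts, coloured by the state in CH12 cells, with plus signs for the medians of all protein-coding genes in each state. Sox2 (late, 0.514) and Gata6 (middle, 0.437) have the highest ratios, and Sox17, Neurod1, Myf5, Pdx1 and Gata4 also lie above the median ratio of their state. Myod1 (early) has the highest GC content, 50.4%, and the lowest ratio, 0.244.

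Other regulators of the same lineages were read from 4 lists holding 49 genes, of which 48 were placed and Sox1 was not analysed here. The muscle and heart list had 10 genes. In CH12 cells 5 were E, 1 was M and 4 were L, in primary B cells 5, 4 and 1, and in MEFs 5, 5 and 0. Pax3, Tbx5 and Hand2 were L in CH12 cells and M in the other maps, while Myog, which acts after Myod1 and Myf5, was E in all 3. Of 10 neural regulators, 4 were L in CH12 cells, 4 in primary B cells and 3 in MEFs. Sox3, a relative of Sox2, was L in all 3 maps, and Neurod2, a relative of Neurod1, was E in all 3.

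Of 9 pluripotency regulators, 4 were L in CH12 cells, 1 in primary B cells and 2 in MEFs. Pou5f1, the partner of Sox2 in pluripotent cells, was E in all 3 maps, and Zfp42 was L in all 3. Klf4 was L in CH12 cells, M in primary B cells and E in MEFs. Of 19 endoderm and pancreas regulators, 4 were L in CH12 cells, 1 in primary B cells and 1 in MEFs. Gata5, of the same family as Gata4 and Gata6, was E throughout and Foxa1 was M throughout. Ptf1a, which acts with Pdx1 in the pancreas, was L in CH12 cells, E in primary B cells and M in MEFs. The lists overlap the 9 genes in ground, since Myf6, Dppa3 and Cdx2 lay in the domains of Myf5, Nanog and Pdx1 in each map.

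Together the 48 genes were 20 E, 12 M and 16 L in CH12 cells, 20, 21 and 7 in primary B cells, and 23, 19 and 6 in MEFs. The same state in both B cell maps was held by 32 of the 48, beside 78.5% of all genes, and in all 3 maps by 25, beside 62.8%. As against CH12 cells, 14 of the 48 were earlier and 2 later in MEFs, beside 23.1% and 6.81% of all genes, where the 9 regulators gave 3 and 3. The 18 regulators of blood lineages served as contrast. They were 12 E and 6 M in CH12 cells, 15 E and 3 M in primary B cells and 11 E and 7 M in MEFs. None of the 18 was L in any map, while 3 of the 9 and 17 of the 48 non-blood regulators were L in at least 1 map. Of all protein-coding genes, 24.0% were L in at least 1 map. Spi1 was read under its older symbol Sfpi1, and Gfi1 is annotated as a processed transcript in the release used. The genes of a list are not independent, and no test was made.

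**Figure D4:**
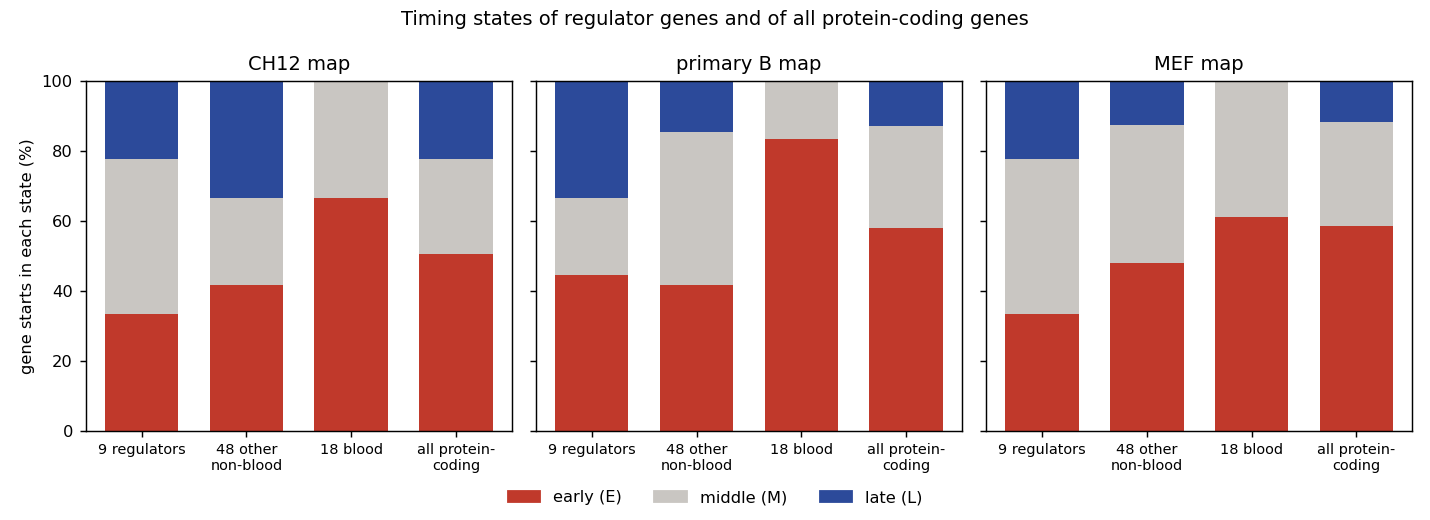
Share of gene starts (y axis, percent) in early, middle and late domains in each of the 3 maps, for the 9 regulators, 48 other regulators of non-blood lineages, 18 blood regulators and all 22350 protein-coding genes. The blood regulators have no late share in any map, and the 9 regulators have 2, 3 and 2 late genes in the CH12, primary B cell and MEF maps.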

How the data were processed

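Repli-seq reads of shLacZ CH12 and WT primary B cells were, per the authors, trimmed with Trim Galore 0.6.5, aligned to mm9 with BWA 0.7.17 and filtered with SAMtools 1.9. Replicates were merged and duplicates removed. The log2 early-to-late ratio was taken with deepTools in 20 kb windows, loess-smoothed over 300 kb and segmented into 3 states (hmm_bigwigs). The methods describe the segmentation for all conditions, and how the public MEF reads were aligned and smoothed is not given in the sources used here. The deposited maps hold each domain's start, end and state number, with no RT value, score or read count, so depth and the RT limits between states are unknown, and replicate spread is lost.

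The files do not name the states. In each map the 2 states that touched in 0 places were taken as outer, and of these the one with more protein-coding starts per Mb as E. This gave E, M and L as 2, 1 and 0 in the B cell maps and 0, 2 and 1 in the MEF map. All maps ended at the NCBIM37 (mm9) chromosome lengths on 20 of 20 chromosomes. Genes came from GENCODE M1 (37252 genes, 22350 protein-coding), placed by their start on their own strand. Edge distances leave out ends of the map. GC and CpG were counted per 20 kb bin, and promoters taken from RefSeq (GRCm38.p6).

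All 9 genes are named. Other genes named are on the lists or next to a member, and some list genes are not reported by name. The genes and lists were chosen with earlier results of these data known. Shares carry Wilson 95% intervals. Alternatives were the gene end, a majority over 100 kb, removal of domains under 100 kb and joining across 40 kb, with all gene types and autosomes only for the background. A majority over 300 kb and starts moved by 100 or 300 kb were chosen after seeing the data. Lookups were tested on simulated maps (7 of 7 checks passed). Figures used matplotlib 3.10.9, and calculations used scipy 1.17.1, pandas 2.3.3 and numpy 2.4.6 under Python 3.11.15.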

Additional observations from a re-analysis of the deposited data

How the results depend on the processing

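The gene end, a majority over 100 or 300 kb, removal of domains under 100 kb and joining across up to 40 kb each changed 0 of the 27 states (9 genes in 3 maps). A window centred on a start, or the end of a gene this short, mostly keeps the state by construction. The result is thus no sign of stability. Moving the starts was harsher. A shift of 100 kb to lower positions changed 4 states (Neurod1 in all 3 maps, and Pdx1 in MEFs) and to higher positions 1 (Sox17 in primary B cells). A shift of 300 kb changed 7 and 8 states, and with starts moved 300 kb higher the number of late members in MEFs was 1 in place of 2, because Sox17 was then M. Other counts moved by 1 gene under a shift. The late members were 2 in place of 3 in primary B cells (100 or 300 kb higher) and 3 in place of 2 in CH12 cells (300 kb lower). Members with the same state in both B cell maps were 8 in place of 7 (100 or 300 kb higher), and those earlier in MEFs than in CH12 cells were 2 in place of 3 (100 kb lower). The states of Myf5 and Sox2 changed under none of these 9 alternatives. Over all gene types the late share was 28.4% in CH12 cells, 17.4% in primary B cells and 16.3% in MEFs, against 22.1%, 12.9% and 11.9% over protein-coding genes. On autosomes only it was 21.3% in CH12 cells and 11% in MEFs. The cause was not tested. No paired analysis was possible because each map pools its replicates and no result comes from a test. With 1 merged map per condition, differences between replicates and between conditions cannot be told apart, and read depth sets no limit that can be stated here.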
